A study of Mus musculus with 6 samples.

Results

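Lower glycolysis, the stretch from aldolase to pyruvate kinase, was followed isoform by isoform in WT and IG27 glial cells through 10 genes: *Aldoa* and *Aldoc* (aldolase), *Tpi1* (triosephosphate isomerase), *Gapdh* (glyceraldehyde-3-phosphate dehydrogenase), *Pgk1* (phosphoglycerate kinase), *Pgam1* (phosphoglycerate mutase), *Eno1* and *Eno2* (enolase), and *Pkm* and *Pklr* (pyruvate kinase). They were chosen by enzyme step and are 10 of the 22911 mouse genes that the array probes could be named for, and all 10 were among the 14898 genes bright enough to be tested. OS3 cells are glial cells from the brain of newborn male C3H mice (C3H/HeN in the methods of the study), immortalized with SV40. WT cells are OS3 cells with the empty vector (OS3-vector), and IG27 cells are OS3 cells given a plasmid with the H3.3-K27M mutation of histone H3.3 (OS3-H3F3A_K27M), which were established as clones by drug selection. The sources do not say how many clones the arrays represent, so the mutation and the choice of clone cannot be told apart. The array level of *H3f3a* gives no check of the labels here, since nothing in the files shows if a probe detects plasmid RNA. Each group had 3 dishes, cultured for 2 days at 5% CO2 in the same medium with 10% serum, 5 µg/mL insulin and 0.2% D-glucose, and the RNA of each dish was labeled with Cy3 and hybridized to its own Agilent array. The comparison asks which enzymes of the pathway differ in RNA level between the mutant and the control cells. Nothing says that the dishes came from separate transfections, so p-values measure the spread between dishes.

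Glycolysis splits glucose into trioses and oxidizes them to pyruvate. The upper steps spend ATP to make fructose-1,6-bisphosphate. From aldolase downward the intermediates yield NADH at GAPDH and ATP at phosphoglycerate kinase and pyruvate kinase, and the enzymes between aldolase and enolase work close to equilibrium in both directions. Several steps have isoforms with their own tissue patterns. *Aldoa* and *Eno1* encode the broadly expressed forms, *Aldoc* the brain aldolase, *Eno2* the enolase known from neurons, *Pkm* the muscle and proliferating-cell forms of pyruvate kinase, and *Pklr* the liver and red cell forms. Many of these genes are textbook targets of the hypoxia-inducible factors (HIF).

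The upstream windows of 5 members are printed because these genes gave, by the brightest probe of each gene, the 3 largest rises (*Aldoc*, *Tpi1*, *Pgam1*; with the mean of the probes *Eno1*, at 1.05, passes *Pgam1*, at 0.98) and the pair of genes that were not called (*Gapdh*, *Pgk1*). Each is the 250 bases before a RefSeq gene start on GRCm38.p6, read 5′ to 3′ on the gene's strand. Capitals mark the core of the HIF response element (ACGTG, or CACGT on the other strand) and the GC box bound by SP-family factors (GGGCGG, or CCGCCC on the other strand). *Aldoc* is shown by the first of its 2 windows, chr11:78322823-78323072 on the plus strand. *Tpi1* lies at chr6:124814159-124814408 and *Gapdh* at chr6:125165774-125166023, both on the minus strand. *Pgam1* lies at chr19:41911621-41911870 and *Pgk1* at chrX:106186850-106187099, both on the plus strand.
Aldoc: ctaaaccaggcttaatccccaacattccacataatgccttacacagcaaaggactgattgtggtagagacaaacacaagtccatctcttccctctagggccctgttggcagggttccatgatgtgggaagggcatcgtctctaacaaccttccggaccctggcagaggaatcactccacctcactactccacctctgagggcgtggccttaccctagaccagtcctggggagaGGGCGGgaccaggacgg
Tpi1: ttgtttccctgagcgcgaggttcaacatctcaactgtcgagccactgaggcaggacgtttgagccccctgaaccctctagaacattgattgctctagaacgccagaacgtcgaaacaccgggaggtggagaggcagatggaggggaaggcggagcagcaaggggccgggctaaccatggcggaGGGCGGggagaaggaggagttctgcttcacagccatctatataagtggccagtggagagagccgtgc
Pgam1: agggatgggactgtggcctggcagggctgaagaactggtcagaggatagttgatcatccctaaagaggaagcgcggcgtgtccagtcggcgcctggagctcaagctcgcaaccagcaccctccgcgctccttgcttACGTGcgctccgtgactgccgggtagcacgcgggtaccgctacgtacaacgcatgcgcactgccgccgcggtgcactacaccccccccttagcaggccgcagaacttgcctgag
Gapdh: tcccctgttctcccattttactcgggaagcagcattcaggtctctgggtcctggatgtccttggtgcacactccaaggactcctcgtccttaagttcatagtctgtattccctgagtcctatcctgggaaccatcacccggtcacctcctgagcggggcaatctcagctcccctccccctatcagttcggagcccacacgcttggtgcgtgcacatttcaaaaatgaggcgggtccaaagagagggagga
Pgk1: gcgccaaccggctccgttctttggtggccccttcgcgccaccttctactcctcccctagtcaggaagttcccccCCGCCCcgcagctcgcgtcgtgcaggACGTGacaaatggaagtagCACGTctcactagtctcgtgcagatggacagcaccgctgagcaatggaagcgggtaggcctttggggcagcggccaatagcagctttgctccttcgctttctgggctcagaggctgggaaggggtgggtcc

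The HIF core stood in 4 of the 10 members: once in *Pgam1*, 114 bases before the start, 2 times in *Pgk1*, 150 and 131 bases before it, and in windows of *Aldoa* and *Pkm* that are not printed. Over all windows of that table, 5444 of 32851 (16.6%) held it, against 5 of the 17 windows of the members, of which 2 overlapping windows belong to *Aldoa*. The 4 genes with a core were a mixture by expression, with *Aldoa* and *Pgam1* higher in IG27 cells, *Pkm* lower and *Pgk1* not called. The GC box stood in 8 of the 17 windows (6 of the 10 members), of which 2 overlapping windows belong to *Aldoa* and 2 to *Eno1*. It stood in 32.7% of all windows, a share per window and not per gene. A match is a description of the letters in the window and not evidence of binding.

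Of the 10 genes, 6 were higher in IG27 cells (*Aldoa*, *Aldoc*, *Tpi1*, *Pgam1*, *Eno1* and *Eno2*), 2 were lower (*Pkm* and *Pklr*) and 2 did not pass the test (*Gapdh* and *Pgk1*), at an adjusted p under 0.05 from limma with Benjamini-Hochberg adjustment over all genes. These counts stand against a broad difference between the cells: over all tested genes 70.5% were called, 30.5% higher and 40% lower. The 3 WT and 3 IG27 values did not overlap in 8 of the 10 members, and did not overlap in 75.7% of all tested genes. *Pklr*, counted as lower and as not overlapping, was well above background in WT cells only. The median log2 fold change was 0.48 over the members and -0.07 over all tested genes. A call with at least a 2-fold rise was made, by the brightest probe, for 2 members, *Aldoc* and *Tpi1*, and for 11.5% of all genes. This count depends on the probe and the scaling. The dimmer probes of *Pgam1* and *Eno1* gave log2 fold changes of 1.02 and 1.53, also above 2-fold. With the arrays scaled on 12 reference genes *Pgam1* was at 1.25 and *Eno2* at 1.18. At the unadjusted p of 0.05 that the methods of the study name, *Pgk1* joined the lower members, giving 9 calls, and 72.9% of all genes passed.

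**Figure D1:**
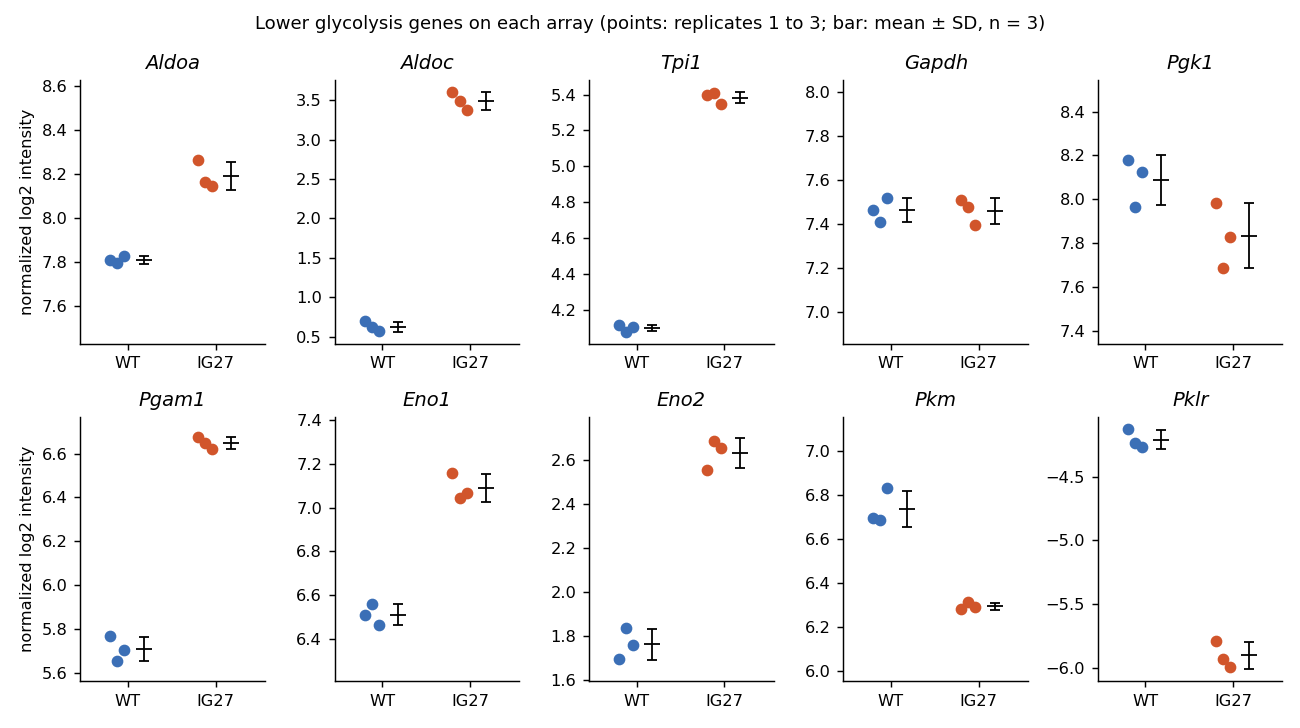
Normalized log2 intensity (log2 processed signal minus the 75th percentile of the array) of each lower glycolysis gene on the 3 WT and 3 IG27 arrays, with replicates 1 to 3 as points from left to right and the mean ± SD (n = 3) as a bar; the vertical axes differ between genes. The groups overlap for *Gapdh* and *Pgk1* and are apart for the other 8 genes, most widely for *Aldoc*, with 0.57 to 0.69 in WT and 3.38 to 3.61 in IG27 cells.

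Aldolase, which splits fructose-1,6-bisphosphate, gave the largest rise among the members in its brain isoform. The normalized log2 intensity of *Aldoc* was 0.69, 0.62 and 0.57 in WT replicates 1 to 3 and 3.61, 3.49 and 3.38 in IG27 replicates 1 to 3. All IG27 arrays lay far above all WT arrays. The log2 fold change was 2.86 ± 0.07 (SE, limma adjusted p = 5.80e-07), a fold of 7.28 with a 95% interval of 6.42 to 8.26, and 94.1% of all tested genes had a smaller absolute change. The second *Aldoc* probe gave 2.98. Each of these probes is printed as 10 spots on every array, and the SD between those spots was 0.05 to 0.22 on the log2 scale on the 5 arrays with complete scanner output, which describes the reading of an array and not the spread between dishes.

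*Aldoa*, the broadly expressed aldolase, rose less. Its single probe read 7.81, 7.79 and 7.83 in WT cells and 8.27, 8.16 and 8.15 in IG27 cells. The groups did not overlap, with a log2 fold change of 0.38 ± 0.05 (SE, limma adjusted p = 0.000757), or 1.30-fold with an interval of 1.19 to 1.42. The change in *Aldoc* exceeded that in *Aldoa* by 2.48 on the log2 scale (95% interval 2.33 to 2.63). The exact permutation test over the 3 against 3 arrays gave p = 0.1, the smallest it allows, and p = 0.1 after adjustment over the 3 isoform pairs compared.

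*Tpi1*, which interconverts the triose phosphates, read 4.12, 4.08 and 4.10 in WT cells and 5.40, 5.41 and 5.35 in IG27 cells. The replicates of each group lay close together and the groups were far apart. The log2 fold change was 1.28 ± 0.04 (SE, limma adjusted p = 1.86e-06), or 2.43-fold with an interval of 2.25 to 2.62. All 3 probes of the gene were called higher, with log2 fold changes of 1.21 to 1.34.

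*Gapdh*, the NADH-yielding step and a common reference gene, did not pass the test at its brightest probe. That probe read 7.46, 7.41 and 7.52 in WT cells and 7.51, 7.48 and 7.39 in IG27 cells, and the groups overlapped. The log2 fold change was -0.0046 with a 95% interval of -0.14 to 0.13 (adjusted p = 0.946 from limma), so changes beyond about 1.10-fold in either direction lie outside the interval. The 5 dimmer *Gapdh* probes all lay above 0, up to 0.21, and 3 of them were called higher, with log2 fold changes of 0.13, 0.17 and 0.21 and adjusted p of 0.0431, 0.0159 and 0.0270 from limma over all probes. The difference among the probes is about as large as the changes themselves.

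*Pgk1*, the first ATP-yielding step, read 8.18, 7.96 and 8.12 in WT cells and 7.98, 7.69 and 7.83 in IG27 cells. IG27 replicate 1 overlapped with WT replicate 2, and the other IG27 arrays lay below all WT arrays. The log2 fold change of its single probe was -0.25 ± 0.10 (SE, 95% interval -0.49 to -0.018, limma adjusted p = 0.0545). Without WT replicate 2 it was -0.32 with an adjusted p of 0.0378, and without IG27 replicate 1 it was -0.33 with an adjusted p of 0.0277, and the other 4 leave-outs gave adjusted p of 0.125 to 0.148. With all 6 arrays it passed with the replicate number as a block (adjusted p = 0.0148 from limma), while with the slide row as a block it was at -0.13 (adjusted p = 0.426 from limma). The call of *Pgk1* thus depended on the setting.

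*Pgam1*, which shifts the phosphate group of phosphoglycerate, read 5.77, 5.66 and 5.71 in WT cells and 6.68, 6.65 and 6.62 in IG27 cells. The groups did not overlap. The log2 fold change was 0.94 ± 0.05 (SE, limma adjusted p = 1.13e-05), or 1.91-fold with an interval of 1.76 to 2.08, and the second probe gave 1.02. The 10 spots of the brighter probe had SDs of 0.03 to 0.10 within an array.

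Enolase, which forms phosphoenolpyruvate, was higher in IG27 cells in both members. *Eno1* read 6.51, 6.56 and 6.47 in WT cells and 7.16, 7.04 and 7.07 in IG27 cells. Its groups did not overlap, and the log2 fold change was 0.58 ± 0.06 (SE, limma adjusted p = 0.000147), or 1.49-fold with an interval of 1.36 to 1.64. Its dimmer probe gave 1.53, with a 95% interval of 1.35 to 1.71 that does not meet that of the brighter probe, so the gene was higher by both but its size depends on the probe. *Eno1b*, a near-identical retrotransposed copy that was looked at after the *Eno1* values were seen, had 3 probes with log2 fold changes of 0.33 (adjusted p = 0.0583 from limma, not called), 0.87 and 1.43. Whether a probe of one copy also reads the RNA of the other was not tested, and the level of *Eno1* is therefore uncertain.

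*Eno2* read 1.69, 1.83 and 1.76 in WT cells and 2.55, 2.68 and 2.65 in IG27 cells, with no overlap. Its log2 fold change was 0.87 ± 0.06 (SE, limma adjusted p = 3.69e-05), or 1.83-fold with an interval of 1.65 to 2.03. The change in *Eno2* exceeded that in *Eno1* by 0.29 (95% interval 0.07 to 0.52, exact permutation p = 0.1, adjusted p = 0.1 over the 3 pairs), and this order turned to -0.18 when the mean of each gene's probes was used. No order of the changes in these isoforms can therefore be given.

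Pyruvate kinase, which makes pyruvate and ATP, was the step at which both members were lower in IG27 cells, *Pklr* by IG27 signals not well above background. *Pkm* read 6.69, 6.69 and 6.83 in WT cells and 6.28, 6.31 and 6.29 in IG27 cells. All IG27 arrays lay below all WT arrays, with a log2 fold change of -0.44 ± 0.06 (SE, limma adjusted p = 0.000580), or 0.736 times the WT intensity with an interval of 0.669 to 0.810. The second probe gave -0.39. *Pkm* makes the PKM1 and PKM2 forms by a choice between exons, and the files do not say which form either probe reads. When the arrays were scaled on 12 reference genes, the log2 fold change of *Pkm* was -0.13 and the call was lost (adjusted p = 0.0639 from limma).

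*Pklr* was dim. It read -4.13, -4.24 and -4.26 in WT cells, where it was well above background on all 3 arrays, and -5.79, -5.93 and -5.99 in IG27 cells, where it was well above background on 0 of the 2 arrays with complete scanner output. Its WT mean was 2.20 times the lowest IG27 signal that counted as well above background, which gives a lower bound for the fall. The limma adjusted p of 4.44e-06 belonged to the measured log2 fold change of -1.70 and did not test this bound. That measured change rests on IG27 signals not well above background, and *Pklr* passed the brightness filter through WT cells alone. The bound holds for the processed signal alone, since under normexp background correction of the 5 complete arrays the log2 fold change was -0.54, smaller than the bound. The measured change in *Pklr* lay below that in *Pkm* by -1.25 (95% interval -1.54 to -0.97, exact permutation p = 0.1, adjusted p = 0.1), a value that rests on IG27 signals not well above background and was -0.19 under normexp and -1.57 under quantile normalization. Of the liver and red cell markers that go with *Pklr* in the body, *Alb*, *Hnf4a*, *Ttr*, *Apoa1*, *Hbb-bt* and *Alas2* were not well above background on any array with complete scanner output. *Hba-a1* was lower in IG27 cells by a log2 fold change of -2.47.

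Probe by probe, the 10 genes had 21 tested probes, of which 20 counted as well above background on each complete array and 0 were saturated. In IG27 cells 14 probes were higher, 3 were lower and 4 did not pass the test, against 69.7% of all 21895 tested probes called and 30.9% called higher. Only *Gapdh* had both called and uncalled probes, and no member had probes called in opposite directions.

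**Figure D2:**
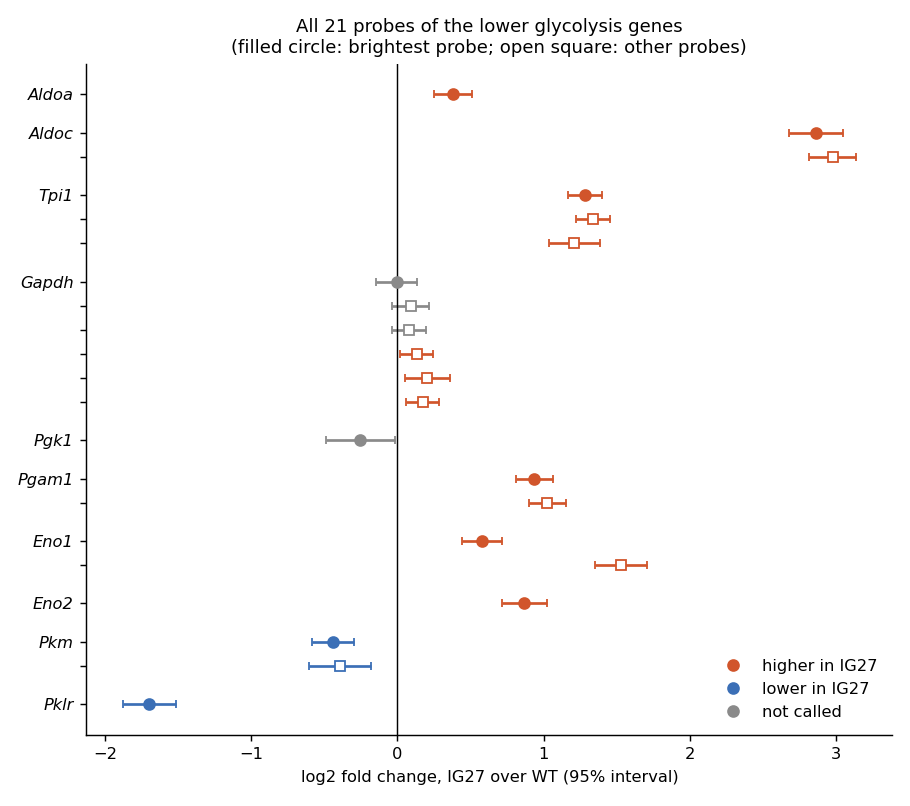
Log2 fold change of IG27 over WT cells with its 95% interval for the 21 probes of the lower glycolysis genes (limma, 3 arrays per group), with the brightest probe of each gene as a filled circle and the others as open squares. The probes of *Aldoc* lie at 2.86 and 2.98 and those of *Tpi1* at 1.21 to 1.34, while those of *Gapdh* spread from -0.0046 to 0.21 and those of *Eno1* stand apart at 0.58 and 1.53.

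Of the other isoforms and side branches of the same steps, 3 genes were bright enough to test. *Eno4*, an enolase of sperm, was higher (log2 fold change 0.79), *Bpgm*, which makes bisphosphoglycerate beside the *Pgam1* step, was lower (-1.03), and *Eno3*, the muscle enolase, gave 0.16 with an adjusted p of 0.0524 from limma. *Gapdhs*, *Pgk2* and *Pgam2* were not tested because neither group had them well above background on each complete array.

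Upper glycolysis, the steps that feed aldolase, was higher in IG27 cells in 7 of 8 tested genes and lower in 0. Over all tested genes 30.5% were higher and 40% lower. The median log2 fold change of the upper steps was 0.96. *Hk1* and *Hk2*, the hexokinases that trap glucose in the cell, had log2 fold changes of 1.45 and 0.65, and *Gpi1*, glucose phosphate isomerase, of 0.66. The phosphofructokinase subunits *Pfkl*, *Pfkm* and *Pfkp* had 1.25, 0.49 and 5.89. *Hkdc1*, a hexokinase relative, had 4.01 but was well above background on 1 of 3 WT arrays. *Hk3* gave 0.43 (95% interval -0.21 to 1.07) and was not called. Over the upper and lower steps together, 13 of 18 tested genes were higher and 2 lower, against 30.5% and 40% of all tested genes. The 2 lower genes were the pyruvate kinases, *Pklr* with IG27 signals not well above background. All 5 genes that set or clear the sugar phosphate that activates phosphofructokinase were lower (*Pfkfb1*, *Pfkfb2*, *Pfkfb3*, *Pfkfb4* and *Tigar*, log2 fold changes of -1.30 to -0.23), as were 40% of all tested genes.

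At the ends of the pathway the isoforms went both ways. Of 6 genes for glucose entry and lactate, *Slc2a1* (the glucose transporter Glut1, 1.92) and *Ldha* (lactate dehydrogenase A, 0.54) were higher in IG27 cells. *Slc2a3* (a neuronal type of glucose transporter, -3.08), *Ldhb* (lactate dehydrogenase B, -2.37) and *Slc16a1* (a monocarboxylate transporter, -1.08) were lower, and *Slc16a3* gave 0.11 and was not called. Of 4 tested genes of gluconeogenesis, which runs the lower steps backward, *Fbp1* (0.82) and *Pcx* (0.95) were higher, *G6pc3* (-0.47) was lower and *Pck2* (-0.05) was not called.

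**Figure D3:**
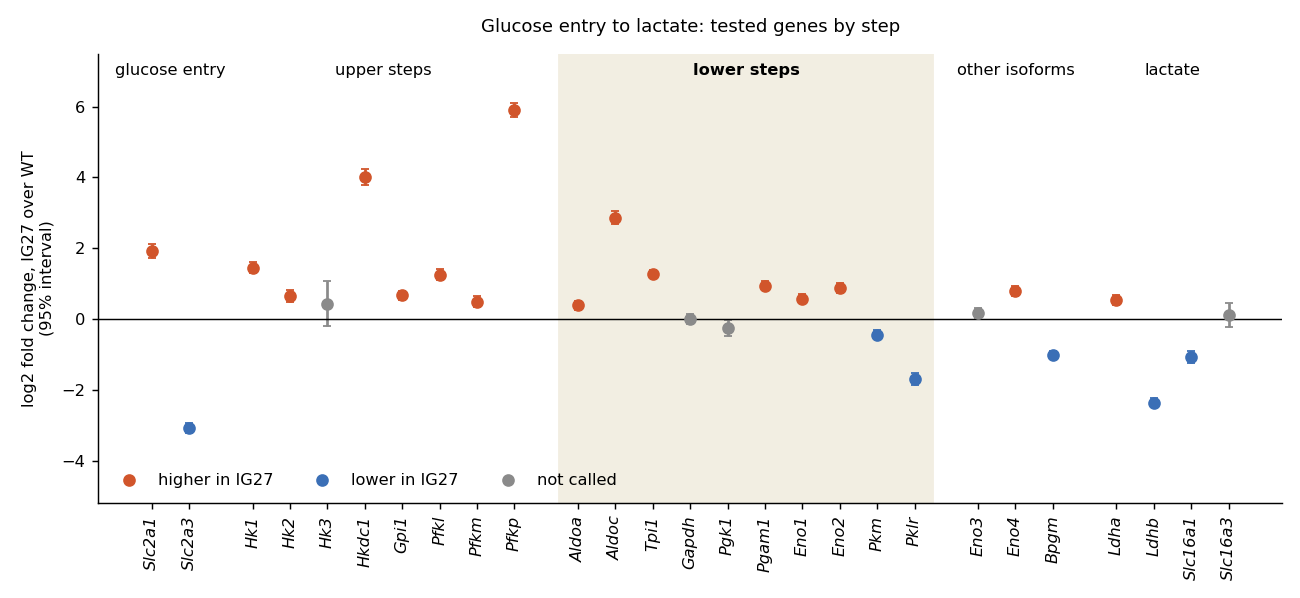
Log2 fold change of IG27 over WT cells with its 95% interval for the tested genes from glucose entry to lactate, in the order of the steps, with the lower steps shaded (limma, 3 arrays per group). The upper steps reach 5.89 at *Pfkp*, the lower steps reach 2.86 at *Aldoc*, and the pyruvate kinases *Pkm* and *Pklr* lie below 0 at -0.44 and -1.70, the latter with IG27 signals not well above background.

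Among 6 tested transcription factors known to act on glycolytic genes, *Hif1a* (log2 fold change 0.88), *Epas1* (the alpha subunit of the second HIF, 2.56) and *Myc* (1.19) were higher in IG27 cells, and *Arnt*, *Max* and *Sp1* were not called (0.070, 0.12 and 0.0058). Of 7 genes that steer the splicing choice in *Pkm*, *Hnrnpa1* was higher (0.23), *Ptbp1* (-0.37), *Ptbp2* (-0.58) and *Nek2* (-0.52) were lower, and *Hnrnpa2b1*, *Srsf3* and *Rbm4* were not called. Their part in the changes of the members was not tested.

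*Eno2*, *Tpi1* and *Gapdh* lie close together on chromosome 6, with genes of either direction between them. Between *Eno2* (0.87) and *Tpi1* (1.28) the RefSeq table lists 4 genes, of which 2 were tested, *Lrrc23* at 1.27 (higher) and *Spsb2* at -0.83 (lower). Between *Tpi1* and *Gapdh* it lists 25 genes, of which 16 were tested, 4 higher and 6 lower, with a median of -0.01. The 20 nearest tested neighbors had a median of -0.02 around *Eno2*, -0.03 around *Tpi1* and -0.02 around *Gapdh*. Over all 705 tested genes of chromosome 6 the median was -0.21, with 158 higher and 351 lower. *Eno2* and *Tpi1* had the opposite sign to that median.

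**Figure D4:**
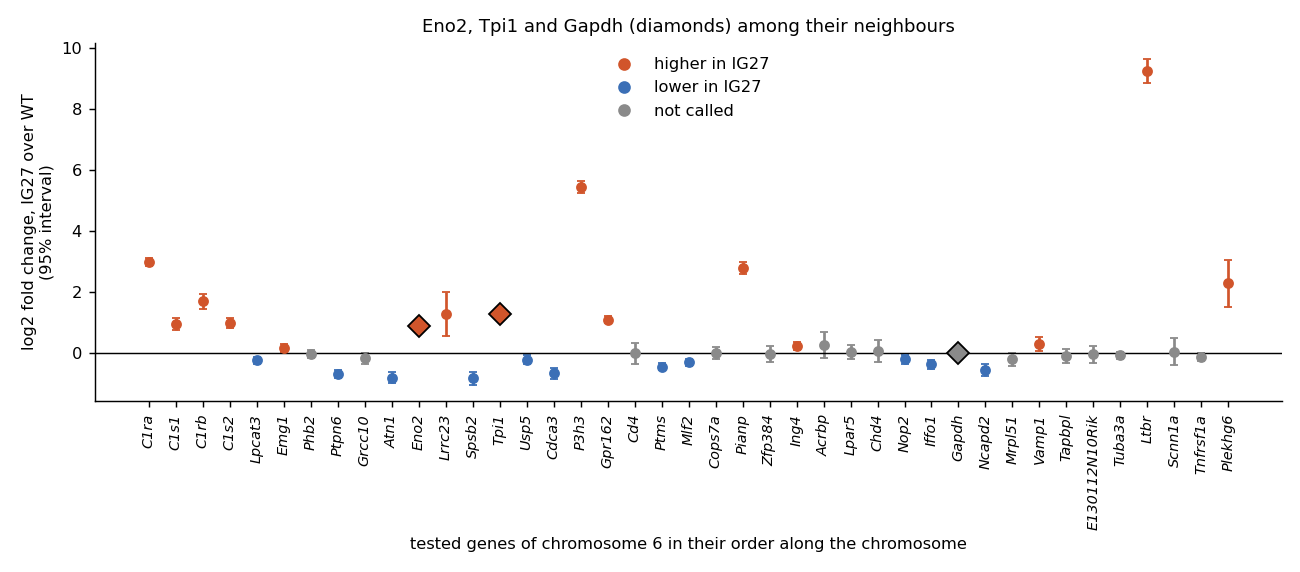
Log2 fold change of IG27 over WT cells with its 95% interval for tested genes of chromosome 6 in their order along the chromosome, with *Eno2*, *Tpi1* and *Gapdh* as diamonds (limma, 3 arrays per group). Higher, lower and uncalled genes alternate around them, and *Spsb2* at -0.83 lies between *Eno2* at 0.87 and *Tpi1* at 1.28.

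For the members on other chromosomes, except *Aldoc*, the changes had the sign of their surroundings. *Pkm* (-0.44) lies on chromosome 9, where the median over 812 tested genes was -0.64 and that of its 20 neighbors -0.68. Of those neighbors 12 were lower and 5 higher. *Pgk1* (-0.25) lies on chromosome X, with a median of -0.60 over 512 genes, of which 325 were lower. Of its 20 neighbors 17 were lower and 1 higher. *Pklr* lies on chromosome 3, with a median of -0.31 over 737 genes, of which 413 were lower. Likewise 17 of its 20 neighbors were lower and 1 higher. *Eno1* (0.58) lies on chromosome 4, with a median of 0.33 and a median of 0.60 for its 20 neighbors, 15 higher and 4 lower. *Aldoa* (0.38) on chromosome 7 and *Pgam1* (0.94) on chromosome 19 had neighbor medians of 0.16 and 0.47. Of 20 neighbors each, 10 were higher and 2 lower for *Aldoa*, and 11 higher and 6 lower for *Pgam1*. Over all tested genes 30.5% were higher and 40% lower. *Aldoc* (2.86) on chromosome 11 lay above all of its 20 neighbors, which had a median of -0.14 and reached 0.68. Whether the changes of whole chromosomes have a part in those of the members was not tested.

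The scale of the arrays bears on the small changes. Of the 12 common reference genes other than *Gapdh*, 7 were lower in IG27 cells, 2 higher and 3 not called, with a median of -0.19. *Actb* (beta-actin) was at -0.20. Scaling the arrays on the mean of these genes in place of the 75th percentile moved the median of all genes by 0.31 and the share of calls that were higher from 43.3% to 65.7%. Under it 7 members were higher and 1 lower. *Gapdh* was then called higher (0.30, adjusted p = 0.00156 from limma) and *Pgk1* was at 0.054 (adjusted p = 0.550 from limma). Relative to the median of all genes, *Gapdh* stood at 0.064 under either scaling, *Pgk1* at -0.19 and *Pkm* at -0.37. That these values stay the same is built in, since either scaling subtracts 1 value from each array. The rises of *Aldoa*, *Aldoc*, *Tpi1*, *Pgam1*, *Eno1* and *Eno2* were called under all 4 scalings.

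**Figure D5:**
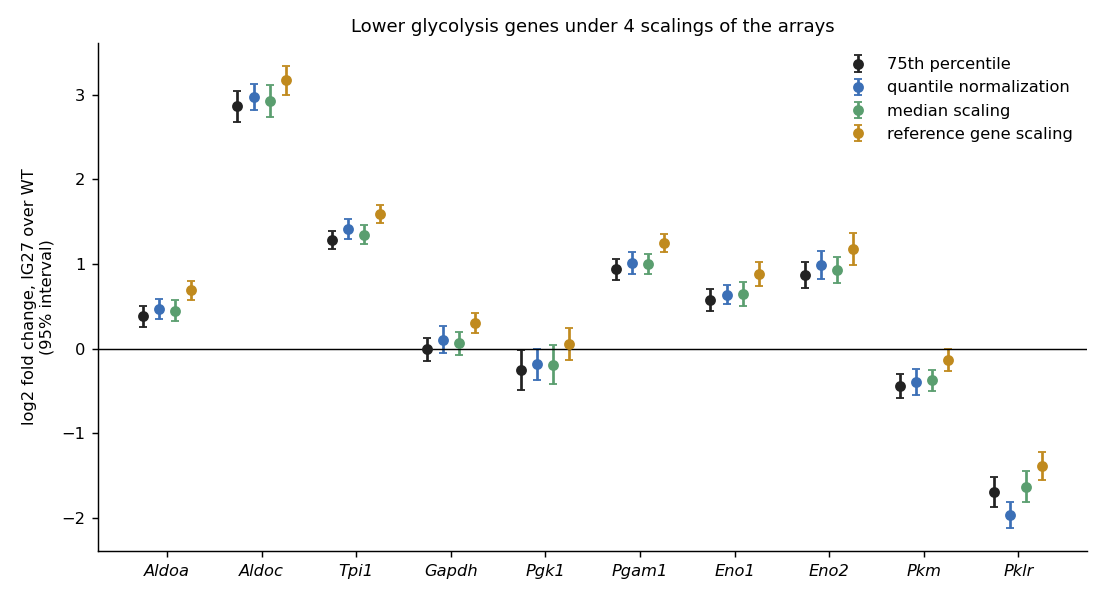
Log2 fold change of IG27 over WT cells with its 95% interval for each lower glycolysis gene under 4 scalings of the arrays (limma, 3 arrays per group). Scaling on reference genes raises every gene by about the same amount, which takes *Gapdh* from -0.0046 to 0.30 and *Pgk1* from -0.25 to 0.054. The values of *Pklr* rest on IG27 signals not well above background.

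The gene profiles most like those of 2 members over the 6 arrays, each centered on its own mean, belonged to *Nr4a1*, *Trnp1* and *Hspb7* for *Aldoc* (root mean square differences of 0.06, 0.08 and 0.08 log2 units) and to *Sat2*, *Sirpa* and *2010315B03Rik* for *Pkm* (0.02 for each). Of 18 glial markers 15 were well above background on every WT array and 17 on every complete IG27 array. *Gfap* was lower (-1.07), *S100b* higher (4.93) and *Slc1a3* at least 20.6-fold higher in IG27 cells. The bound of *Slc1a3*, which was well above background on 0 of 3 WT arrays, was taken from the processed signal alone.

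Markers of other cells went both ways within their lists, so the sum of a list (linear intensity relative to the 75th percentile of the array) follows its brightest genes. Of 6 tested neuron markers 2 were lower, *Tubb3* (log2 fold change -2.63) and *Nefm* (-0.63), and 1 was higher, *Map2* (8.03, well above background on 1 of 3 WT arrays). The neuron list summed to 21.3 to 23.5 in WT and 12.7 to 13.9 in IG27 cells. *Rbfox3*, *Syt1* and *Nefl* were not well above background on any array with complete scanner output. Of 4 tested microglia markers *Tmem119* (-0.76) and *Csf1r* (-1.57) were lower and *P2ry12* (0.49) and *Aif1* (1.66, well above background on 1 of 3 WT arrays) were higher. The microglia list summed to 4.94 to 5.31 in WT and 2.63 to 2.93 in IG27 cells, with *Cx3cr1* and *Ptprc* not well above background. Of the endothelial markers, *Kdr* was at least 135-fold higher and *Pecam1* lower (-0.27) in IG27 cells, with *Cdh5*, *Cldn5* and *Tek* not well above background. The endothelial list summed to 0.172 to 0.194 in WT and 2.60 to 2.67 in IG27 cells, with *Kdr* as its 1 marker called higher. Of the fibroblast markers *Col1a1* (-0.92) and *Pdgfrb* (-1.16) were lower and *Dcn* was at least 3.32-fold higher, with *Lum* and *Thy1* not well above background. The bounds of *Kdr* and *Dcn*, each well above background on 0 of 3 WT arrays, were taken from the processed signal alone. The fibroblast list summed to 126 to 129 in WT and 64.3 to 69.6 in IG27 cells. Their part in the changes of *Aldoc* and *Eno2*, which are known from astrocytes and neurons, was not tested. Where fewer cells of a type and less RNA per cell differ between groups, bulk RNA cannot tell them apart.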

How the data were processed

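RNA of 3 WT and 3 IG27 dishes was measured on 6 single-color Agilent mouse arrays of 1 slide. The authors scanned the slide with Feature Extraction (version 10.7.3.1 per the file headers, 9.1 in the submitters' processing notes) and deposited the processed signal of each spot, an intensity on a linear scale. For IG27 replicate 2 the deposited scanner output ends early, at 285 of 62976 spots, and the deposited value table, which equals the scanner output where both exist (tolerance 0.0001), gave its values. For WT replicates 2 and 3 the table and the scanner output hold each other's values. Which is right is not known, and the scanner labels were used. This leaves the comparison of the groups as it is, but the names of these replicates, and the fit with replicate number as a block, depend on it. It carries no background flags for IG27 replicate 2, so "complete" arrays are the other 5, on which 58.8% to 61.2% of 56605 probes were well above background. The number of arrays limits the precision.

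Values are log2 of the intensity minus the 75th percentile of the array. Outlier spots were left out, except for IG27 replicate 2, for which the deposited values were used as they are. A gene was read by its brightest probe and tested where each complete array of at least 1 group had it well above background, by two-sided limma 3.58.1 (R 4.3.3, lmFit followed by eBayes), Benjamini-Hochberg adjustment over all genes and a threshold of 0.05. Where a group was not well above background, the other group's mean was set against a bound, which on each array is the probe itself or the dimmest probe flagged well above background, whichever is brighter, averaged over arrays. Isoform pairs were compared by exact permutation over arrays, with 95% intervals from the pooled SD. Names and promoter windows came from RefSeq tables (GRCm38.p6), by accession. Genes named are the members, the members of lists written by enzyme step or cell type, and the 3 nearest profiles of the member with the largest rise and of the measured member with the largest fall. *Eno1b*, *Lrrc23* and *Spsb2* were named after their values were seen. The members and lists were chosen with earlier results of these data known. Some genes of these lists are not reported here. The limma fit alone was tested on simulated data, in which a far smaller share of genes changed than was called here. The scalings, the brightness filter, the bounds and the permutation test were not. WT replicates correlated at 0.994 to 0.996, IG27 replicates at 0.997 and arrays of different groups at 0.902 to 0.905 over genes.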

Additional observations from a re-analysis of the deposited data

How the results depend on the processing

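The members called numbered 8 or 9 of 10 under each of 19 alternatives, and the genes called in all 8946 to 11164. The 6 rises kept their direction and call under all 18 alternatives that give single values. *Gapdh*, not called at -0.0046, changed sign to 0.11 (quantile normalization), 0.062 (median scaling), 0.30 (reference genes), 0.11 (mean of its probes, adjusted p = 0.0506 from limma), 0.049 (slide row as a block), 0.022 (without WT replicate 3) and 0.028 (without IG27 replicate 3), and ran from -0.031 to 0.028 when 1 array at a time was left out. *Pgk1* turned to 0.054 with reference genes, and passed the threshold with a stricter filter on dim probes (adjusted p = 0.0446 from limma), with a trend in eBayes (0.0363), with the replicate block (0.0148) and without WT replicate 2 or IG27 replicate 1. *Pklr* has no value under the stricter filter, which it does not pass, and was at -0.54 under normexp, which was run on median signals of the 5 complete arrays because mean signals are lacking. *Pklr* minus *Pkm* was at -0.19 under normexp and -1.57 under quantile normalization. *Eno2* minus *Eno1* turned to -0.18 with the mean of probes. The causes were not tested. Leaving out 1 array at a time gave 9800 to 10160 genes, 8 to 9 members, and 2.44 to 2.52, 0.24 to 0.36 and -1.33 to -1.19 for *Aldoc* minus *Aldoa*, *Eno2* minus *Eno1* and *Pklr* minus *Pkm*. With replicate number as a block 10309 genes and 9 members were called. Same-numbered arrays deviated together with r of 0.012, 0.040 and 0.076, so the numbers were not taken to pair the dishes, and among the members the block changed the call of *Pgk1* alone. On the slide, the row of the IG27 arrays held WT replicate 2 and no other WT array, so the row block compares IG27 cells with WT replicate 2. It called 8946 genes and 8 members, with *Aldoc* at 2.87 and *Tpi1* at 1.30.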
